A study of Mus musculus with 4 samples.

Results

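Circular RNAs (circRNAs) of mouse brain were followed along 3 tissue states in stroke, from sham cortex through the penumbra to the infarct core, and those that rose or fell in that order were sought. The count of each circRNA in the sham library, in the penumbra library and in the sum of the 2 core libraries was scaled to the total circRNA count, as CPM (counts per 1000000). Of the 23980 circRNAs counted, 2372 had 30 or more counts over the 4 libraries and were tested. Summed over all circles of a gene, 2025 of 5411 host genes reached 30 counts. The penumbra and core libraries came from mice with permanent middle cerebral artery occlusion (MCAO), a stroke model in which a filament shuts the artery, sampled at 3 h. RNA of 6 mice was pooled before each of these libraries was made. The core was taken as a piece near the frontal lobe (core frontal) and a piece near the occipital lobe (core occipital). The sham library came from sham-operated mice and holds the cortex that matches core and penumbra. The labels state neither strain nor age, nor how many sham mice were used and when they were sampled. No transgene and no drug is named for any group. Each state had 1 library (the core 1 for each piece), so no value has a replicate check, and every difference below is between these libraries. Tissue position and injury cannot be told apart, since the core pieces lie at different places and the sham tissue spans several.

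A circRNA forms when the spliceosome joins the end of an exon back to the start of the same or an earlier exon, which leaves a closed loop without free ends. Circles are therefore long-lived, and brain holds many of them, many of them from genes of neurons and synapses. In ischemic stroke the core loses nearly all blood flow and its cells lose ion balance within minutes, while the penumbra around it keeps a reduced flow and can still be saved. The counts are of reads over the back-splice junction, the only stretch that tells a circle from the linear transcript of its host gene. In bulk tissue, fewer cells of a type and less RNA per cell cannot be told apart.

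Along sham, penumbra and core, 29 circRNAs rose (1.22% of those tested) and 30 fell (1.26%). A circRNA was called when an exact trend test passed an adjusted p of 0.05 and its CPM values stood in strict order. The trend test gives sham the score 0, penumbra 1 and core 2 and sets the score sum of a circRNA's counts against its exact distribution under the library totals, two-sided, with Benjamini-Hochberg adjustment over all 2372. Exon 2 of Tcf20, a transcriptional coregulator, led the rising circles, and a junction at Ccdc30, a coiled-coil gene, led the falling ones. The core to sham ratio of the rising circles ran from 1.29 to 5.56 with a median of 2.46, and 20 of the 29 reached 2. The sham to core ratio of the falling circles ran from 1.17 to 10.6 with a median of 2.51, and 21 of the 30 reached 2. These values come from the counts that chose the circles and describe them. Over all 2372 circRNAs the median core to sham ratio was 1.01. A further 3 circles passed the adjusted p out of order: Tpr exons 8 to 10 and Rps6kc1 exons 4 to 6 were lowest in the penumbra, with core summed (38, 12, 17 and 13 counts, and 78, 35, 44 and 39, in sham, penumbra, core frontal and core occipital), and so was Slc35e2 exons 2 to 5, with core highest (5, 3, 19 and 12).

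The test covers counting error only. With the spread between the core pieces and the departure from a line taken as error, edgeR's quasi-likelihood test called 0 circRNAs of 2372 (0%) in either direction. At an unadjusted p of 0.05 it had 67 higher and 72 lower, and DESeq2's Wald test, which also called 0, had 18 and 10. Without any trend, a share of 0.05 of the 2372 would pass such a p on average, so these numbers are no calls. All 29 rising and 27 of the 30 falling circles were among those with an unadjusted edgeR p below 0.05, and their smallest adjusted p by edgeR was 0.157. Both tests use the same counts and the same scores, so this overlap is built in and lends the calls no support. A spread between libraries of 20% (a coefficient of variation of 0.2) was also assumed for every circRNA. This used another test, edgeR's likelihood-ratio test on sham, penumbra and summed core. By it, 0 rising and 2 falling circles stayed called, the Ccdc30 junction and exons 11 to 12 of Ambra1.

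Without any test, 416 circRNAs (17.5%) stood in the rising order and 345 (14.5%) in the falling order. Counting error alone, computed exactly from each circRNA's total and the depths, gives 352.0 (14.8%) and 339.6 (14.3%). Were all 6 orders of the 3 values equally likely, each would hold 395.3. The rising order was thus 1.18 times the number from counting error, and the falling order 1.02 times. The falling share lay just below that from counting error with core frontal alone as the core (15.8% against 15.9%) and with DESeq2 size factors (14.1% against 14.4%). It lay furthest above with core occipital alone (20.2% against 17.1%), where the rising share was 19.7% against 16.5%. The falling order thus showed no steady excess, and its size depended on the core piece. In the remaining orders, 451 circRNAs had the penumbra highest and sham lowest (460.3 from counting error), 492 had sham highest and the penumbra lowest (474.6), 331 had core highest and the penumbra lowest (380.5), and 337 had the penumbra highest and core lowest (365.1). The orders with core in the middle were thus the most frequent ones both in the data and from counting error, since the core, summed over its pieces, has the smallest counting error. With the demand that each core piece lie beyond the penumbra on its own, 222 circRNAs were rising (187.6 from counting error) and 207 falling (190.2). Host genes gave a like picture, with 360 rising (17.8%, against 302.4) and 310 falling (15.3%, against 291.8). By depth, the excess of the rising order was 219 against 179.0 at 30 to 59 counts, 120 against 99.8 at 60 to 119 counts, and 77 against 73.2 at 120 counts or more. For the falling order the same classes gave 167 against 172.4, 94 against 95.7, and 84 against 71.5. Variation between pools adds to counting error and has no estimate here, so these numbers carry no test.

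**Figure D1:**
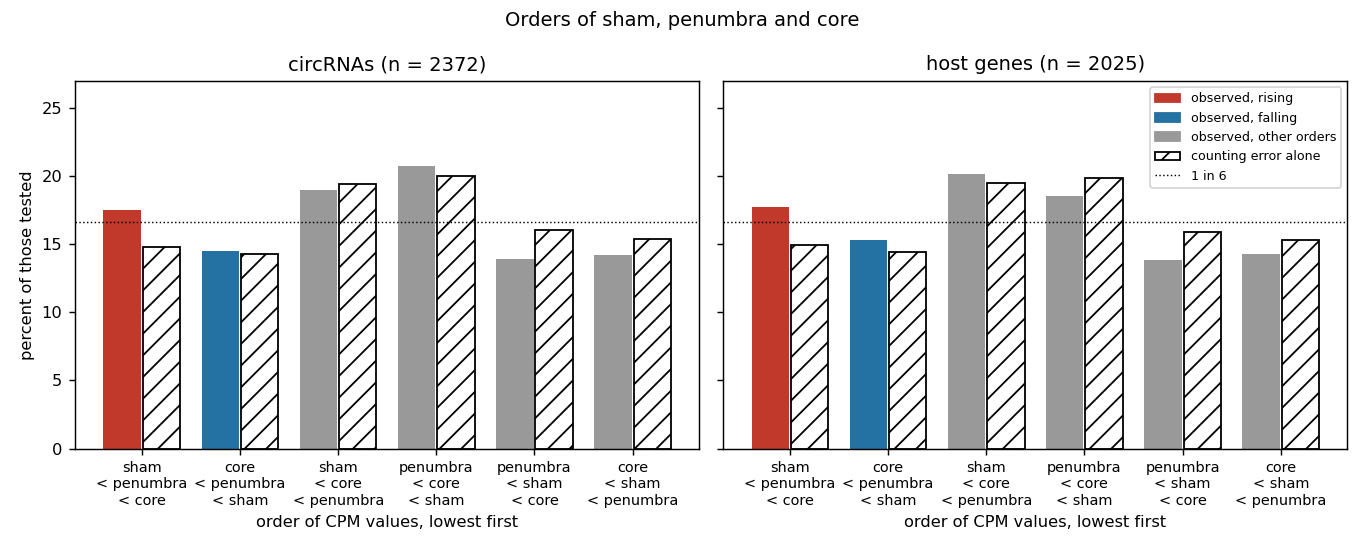
Share of circRNAs (left, n = 2372) and host genes (right, n = 2025) in each of the 6 orders of sham, penumbra and core CPM, in percent; filled bars are the data, hatched bars what counting error alone gives, and the dotted line is 1 in 6. The rising order holds 17.5% of circRNAs against 14.8% from counting error, and the falling order 14.5% against 14.3%.

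The back-splice junctions of the 8 leading circles whose ends both lie on exon boundaries of 1 gene are shown, because a read must cross them to be counted. Each is written 5′ to 3′ on the host strand as 30 bases of GENCODE M21 transcript sequence (GRCm38), with the last bases of the circle's final exon in lower case and the first bases of its first exon in capitals.
Tcf20 exon 2, rising: atcgccagagagatgGAGGGCTGCTGGCCT
Fmn1 exon 2, rising: accagttgccaccagGCAGCCTCATTGCGG
Slc8a1 exon 2, rising: gaacgatgaaatagtGTTGGAGCAGTTGGA
Ambra1 exons 11 to 12, falling: acagggtcctggcagGGACAATGGTGACAG
Ptk2 exons 2 to 4, falling: aattcttgtcataaaGTCTCTGGGCTACAA
Hnrnpu exons 4 to 6, falling: ggtctccctttcatgTCTGTCCATGTGAAT
Rnf121 exon 8, falling: gatgttcagcaatccATTCCATGAATTCTG
Myrip exons 10 to 11, falling: gaggagctgaagaagACCTGGCCCCACTTT
All 3 rising circles here are exon 2 alone, and all 5 falling ones hold another exon or several. Exon 8 of Rnf121 is 102 bases long and closes on itself. Its whole circle, with the 15 bases at each end in capitals, is as follows.
Rnf121 exon 8, whole circle: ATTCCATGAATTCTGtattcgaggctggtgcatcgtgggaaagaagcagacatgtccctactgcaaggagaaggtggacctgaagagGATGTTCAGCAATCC

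Among the rising circles, exon 2 of Tcf20 (15:82851513-82857284, 5772 bases, coding with an untranslated part) had the smallest p. Its CPM was 2271 in sham, 2968 in penumbra, 3262 in core frontal and 4032 in core occipital, from 242, 286, 396 and 335 counts. The core to sham ratio was 1.57 (95% interval from counting error, 1.36 to 1.83; adjusted p = 3.91e-07, exact trend test). It is the only one of the 59 called circles in which both the step from sham to penumbra (1.31, 1.10 to 1.56) and the step from penumbra to core (1.20, 1.05 to 1.39) had an interval that did not include 1. All 3 injured libraries lay above sham, and both core pieces above the penumbra. The circle of Tcf20 exons 2 to 3 (15:82825231-82857284), which starts at the same site, had 66, 78, 74 and 80 counts in the same order of libraries, a core to sham ratio of 1.22 (0.906 to 1.65).

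The next rising circles were also formed by exon 2 alone. Exon 2 of Slc8a1 (17:81647809-81649638), the plasma membrane sodium-calcium exchanger, had 3942 CPM in sham, 4691 in penumbra, 5173 in core frontal and 5319.5 in core occipital. Core exceeded sham 1.33-fold (1.18 to 1.49; adjusted p = 0.000218, exact trend test). Exon 2 of Fat3 (9:16374949-16378254), a giant atypical cadherin, had 4495 CPM in sham, 5646 in penumbra, 5651 in core frontal and 6054 in core occipital, so that nearly all of its 1.29-fold difference (1.16 to 1.44; adjusted p = 0.00136, exact trend test) was already there in the penumbra. Exon 2 of Fmn1 (2:113363836-113365829), the formin-1 gene, whose protein starts new actin filaments, had 1060.5 CPM in sham, 1578 in penumbra, 1466 in core frontal and 2311 in core occipital. Its ratio was 1.71 (1.38 to 2.13; adjusted p = 0.000218, exact trend test), but core frontal lay below the penumbra, and with core frontal alone as the core the call was lost (adjusted p = 0.159).

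Circles of Epb41l1 and Epb41l3, genes of the protein 4.1 family, rose. These proteins tie membrane proteins to the spectrin and actin skeleton. Exons 11 to 15 of Epb41l1 (2:156508813-156514210) had 300.3 CPM in sham and 322 in penumbra against 626 and 638 in the core pieces, a core to sham ratio of 2.10 (1.42 to 3.20; adjusted p = 0.00173, exact trend test). Penumbra to sham was 1.07 and core to penumbra 1.96, so that the difference lay between penumbra and core. Exons 2 to 3 of Epb41l3 (17:69207859-69210383) had 282 CPM in sham, 467 in penumbra, 667 in core frontal and 542 in core occipital (2.19, 1.46 to 3.38).

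In 3 further circles every library followed the order. Exon 5 of Cdyl (13:35815909-35816575), a chromodomain corepressor, had 2337, 3010, 3163 and 3213 CPM, a ratio of 1.36 (1.18 to 1.58). Exons 2 to 4 of Fam53b (7:132759389-132779385) had 310, 550, 651 and 710 CPM (2.18, 1.48 to 3.29). Exon 2 of Pwwp2a (11:43704534-43705477), a chromatin protein, had 526, 592, 824 and 939 CPM (1.66, 1.22 to 2.28). In Pwwp2a most of the difference lay between penumbra and core.

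Circles with few counts gave the largest ratios and the widest intervals. Exons 4 to 10 of Map3k5 (10:20023608-20059090), a stress-activated kinase above the JNK and p38 kinases, had 7 counts in sham, 7 in penumbra, 29 in core frontal and 17 in core occipital, a core to sham ratio of 3.42 (1.54 to 8.99; adjusted p = 0.0113, exact trend test). The penumbra to sham ratio was 1.11 and the core to penumbra ratio 3.10, so that the difference lay in the core. Exon 2 of Zfp516 (18:82955524-82957449), a zinc finger factor, had 3, 8, 17 and 15 counts and the highest ratio, 5.56 (1.74 to 28.4). Exons 4 to 7 of Kcnh5 (12:75087405-75131026), a potassium channel opened by voltage, had counts of 4, 10, 12 and 27 (5.08, 1.83 to 19.6), with core frontal just below the penumbra in CPM. Exons 2 to 5 of Mtmr7 (8:40590410-40609016), a phosphoinositide phosphatase, had 3, 6, 15 and 13 (4.86, 1.502 to 24.999). Exons 17 to 19 of Grip1 (10:120035351-120038793), a scaffold of AMPA receptors, had 4, 6, 25 and 10 (4.56, 1.63 to 17.7), and exons 2 to 8 of Arel1 (12:84934152-84951381), a ubiquitin ligase, had 4, 7, 24 and 10 (4.43, 1.58 to 17.2). Such circles are called only when their ratio is large: the lowest ratio among the rising circles with fewer than 60 counts was 3.56. The remaining rising circles include those of Ppp1r9a, Rnf214, Rasgef1b, Ash1l, Dpy19l1, Lingo2, Anks1b, Kcnk2, Dgki, Arpp21, Plekha5 and Oxct1, with ratios from 1.59 (Oxct1, a ketone body enzyme) to 3.56 (Ppp1r9a exons 10 to 12).

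**Figure D2:**
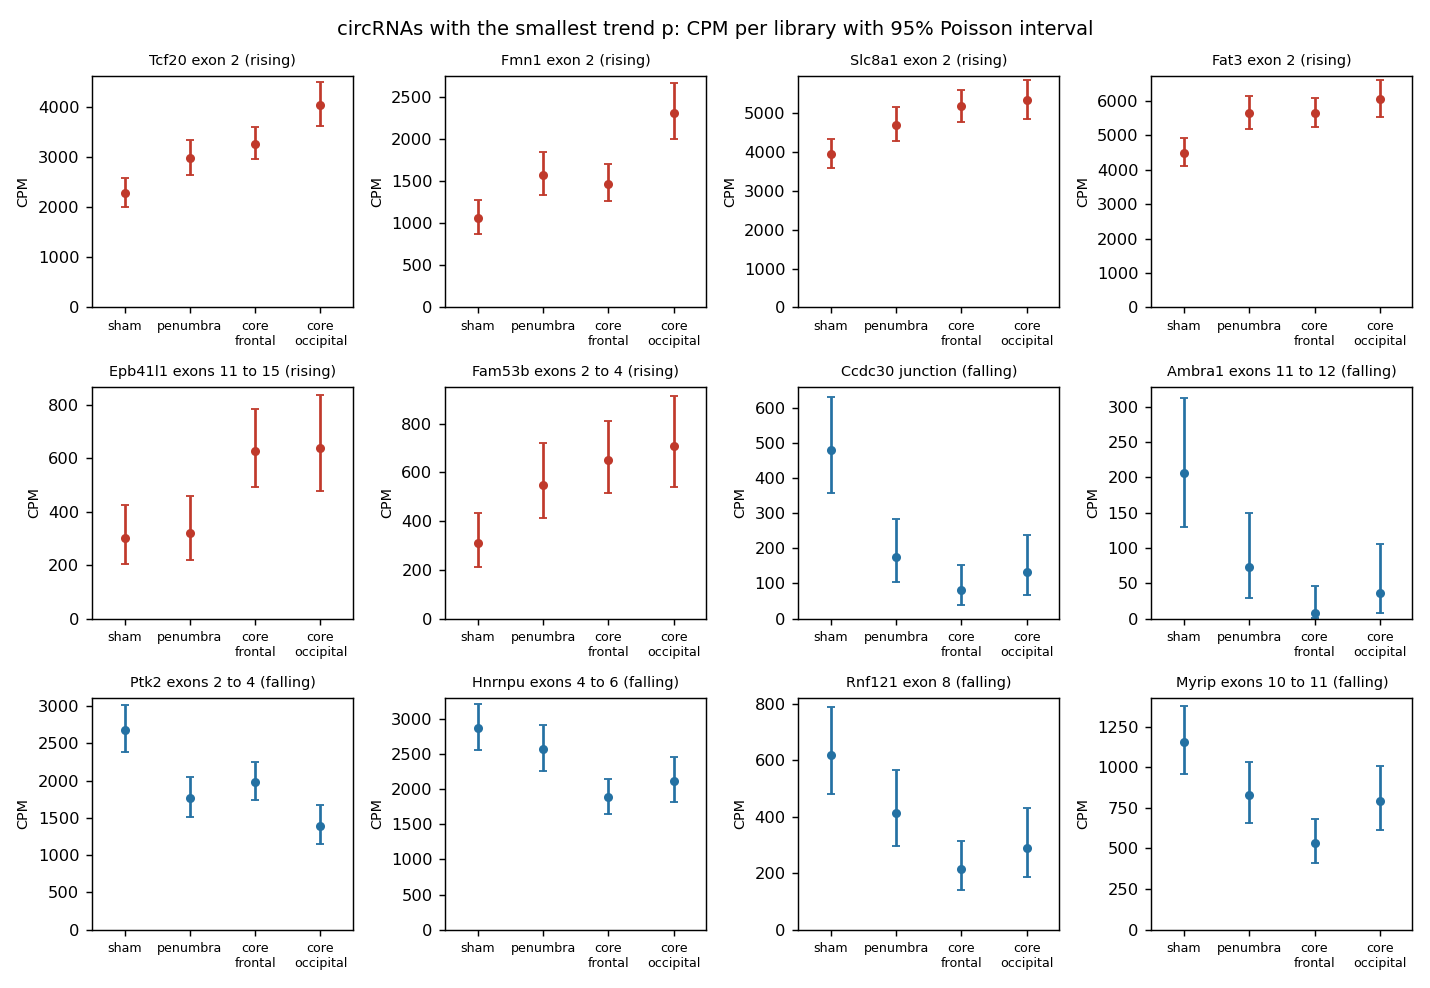
CPM in each of the 4 libraries for the 6 rising (red) and the 6 falling (blue) circRNAs with the smallest trend p; points are single libraries, bars 95% Poisson intervals from counting error, and each y axis starts at 0. In Tcf20 the 4 libraries climb from 2271 to 4032 CPM, and in the Ccdc30 junction sham stands at 479 CPM and the others between 82.4 and 176.

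The falling circles were led by a junction at Ccdc30 (4:119339761-119340684), with only 1 end on an exon boundary. It had 479 CPM in sham, 176 in penumbra, 82.4 in core frontal and 132 in core occipital, from 51, 17, 10 and 11 counts. Sham exceeded core 4.66-fold (2.75 to 8.16; adjusted p = 3.91e-07, exact trend test). Sham stood apart from the other 3 libraries. The circle of Ambra1 exons 11 to 12 (2:91824460-91825352) had the largest ratio of all, with 22 counts in sham, 7 in penumbra, 1 in core frontal and 3 in core occipital. Ambra1 is a regulator of autophagy. Its sham to core ratio was 10.6 (3.58 to 42.1; adjusted p = 0.000156, exact trend test). The other tested circles of the gene end at the same site but start earlier, and did not follow: exons 9 to 12 had 28, 22, 31 and 18 counts (core to sham 0.912, 0.562 to 1.51) and exons 10 to 12 had 13, 23, 22 and 14 (1.44, 0.747 to 2.97).

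Abundant falling circles changed less. Exons 2 to 4 of Ptk2 (15:73391759-73394744), the focal adhesion kinase, had 2684 CPM in sham, 1764 in penumbra, 1977 in core frontal and 1396 in core occipital, a sham to core ratio of 1.54 (1.31 to 1.81; adjusted p = 0.000156, exact trend test). Core frontal lay above the penumbra, and 96.9% of the change on the log scale was reached in the penumbra. Exons 4 to 6 of Hnrnpu (1:178323134-178325313), a nuclear RNA-binding protein, had 2872, 2564, 1886 and 2118 CPM (1.45, 1.25 to 1.69), with the larger step between penumbra and core. Exons 2 to 4 of Ssbp2 (13:91524585-91564694), a transcription cofactor, had 8305, 7909, 7620 and 6018 CPM (1.19, 1.09 to 1.30), and the low value of core occipital carried the call: with core frontal alone the adjusted p was 0.366. Exons 4 to 8 of Gigyf2 (1:87364104-87380008), a translational repressor, had 8324, 7649, 7117 and 7089 CPM (1.17, 1.08 to 1.27).

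Of the 5 most abundant circRNAs, Ssbp2, Gigyf2 and Fat3 were called, while Tulp4 (17:6137211-6139156; 9244, 8874, 9918 and 9532 CPM) and exon 2 of Med13l (5:118593333-118593570; 5424, 4681, 4251 and 5127 CPM) were not. Tulp4 was lowest in the penumbra. Med13l stood in the falling order with core summed, but its adjusted p was 0.0821 (exact trend test), and its core occipital lay above the penumbra.

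Exon 8 of Rnf121 (7:102023312-102023413), a membrane-bound ubiquitin ligase, had 619 CPM in sham, 415 in penumbra, 214 in core frontal and 289 in core occipital, a ratio of 2.53 (1.73 to 3.73; adjusted p = 0.000218, exact trend test). The 4 libraries followed the order with both core pieces lowest. Exons 10 to 11 of Myrip (9:120432353-120441581), which links Rab27 vesicles to myosin, had 1154, 830.3, 535 and 794 CPM (1.80, 1.40 to 2.32). The junction at Dapk1 (13:60762357-60762518), a calmodulin-dependent death-associated kinase, had 28, 18, 6 and 8 counts (3.84, 1.95 to 7.89). Exons 3 to 4 of Fbxw11 (11:32708188-32711997), a substrate receptor of ubiquitin ligases, had 24, 10, 7 and 4 counts (4.19, 1.97 to 9.47). Exons 4 to 7 of Cntn5 (9:10090158-10172122), a contactin, had 19, 9, 4 and 3 (5.21, 2.10 to 14.7), and exons 2 to 6 of Zranb1 (7:132949585-132973623), a deubiquitinase, had 19, 6, 5 and 3 (4.56, 1.91 to 12.03). Exons 15 to 18 of Shprh (10:11178734-11185462), a ubiquitin ligase of DNA repair, had 39, 24, 16 and 14 counts (2.49, 1.51 to 4.16). Other falling circles come from Nrcam, Kmt2a, Rere, Dlgap1, Nemf, Acer3, Myo9a, Gm34237, Kcmf1, Anks1b, Uty, Lingo2, Dmd, Cers5, Fancl and Sntg1, with ratios from 1.33 (Anks1b exons 5 to 8) to 4.39 (a Lingo2 junction and Dmd exons 75 to 78, which had the same sham, penumbra and summed core counts).

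Where the penumbra stood between sham and core varied widely among the called circles. The share of the log change from sham to core that was reached in the penumbra had a median of 59.0% in the rising and 43.9% in the falling circles. It lay between 33% and 67% in 15 rising and 16 falling circles, below in 6 and 9, and above in 8 and 5. Penumbra was near sham in Arpp21 exons 4 to 6 (2.82%), Map3k5 (8.18%) and Epb41l1 (9.29%), and near core in Ptk2 (96.9%), Fat3 (88.6%), Nemf exons 23 to 25 (88.2%) and Rnf214 exons 3 to 6 (86.0%). The counts behind these shares are small, and of the 59 circles only Tcf20 resolved both steps. For 8 rising and 9 falling circles the interval of the step from sham to penumbra did not include 1, and for 9 and 8 that of the step from penumbra to core. Both core pieces lay beyond the penumbra in 27 of the 29 rising circles (not in Fmn1 and Kcnh5) and in 28 of the 30 falling ones (not in Ptk2 and Nemf). A call demands that their sum lie beyond the penumbra, so these high shares come in part from the choice of circles. In the whole order, called or not, this held for 222 of 416 rising and 207 of 345 falling circles.

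**Figure D3:**
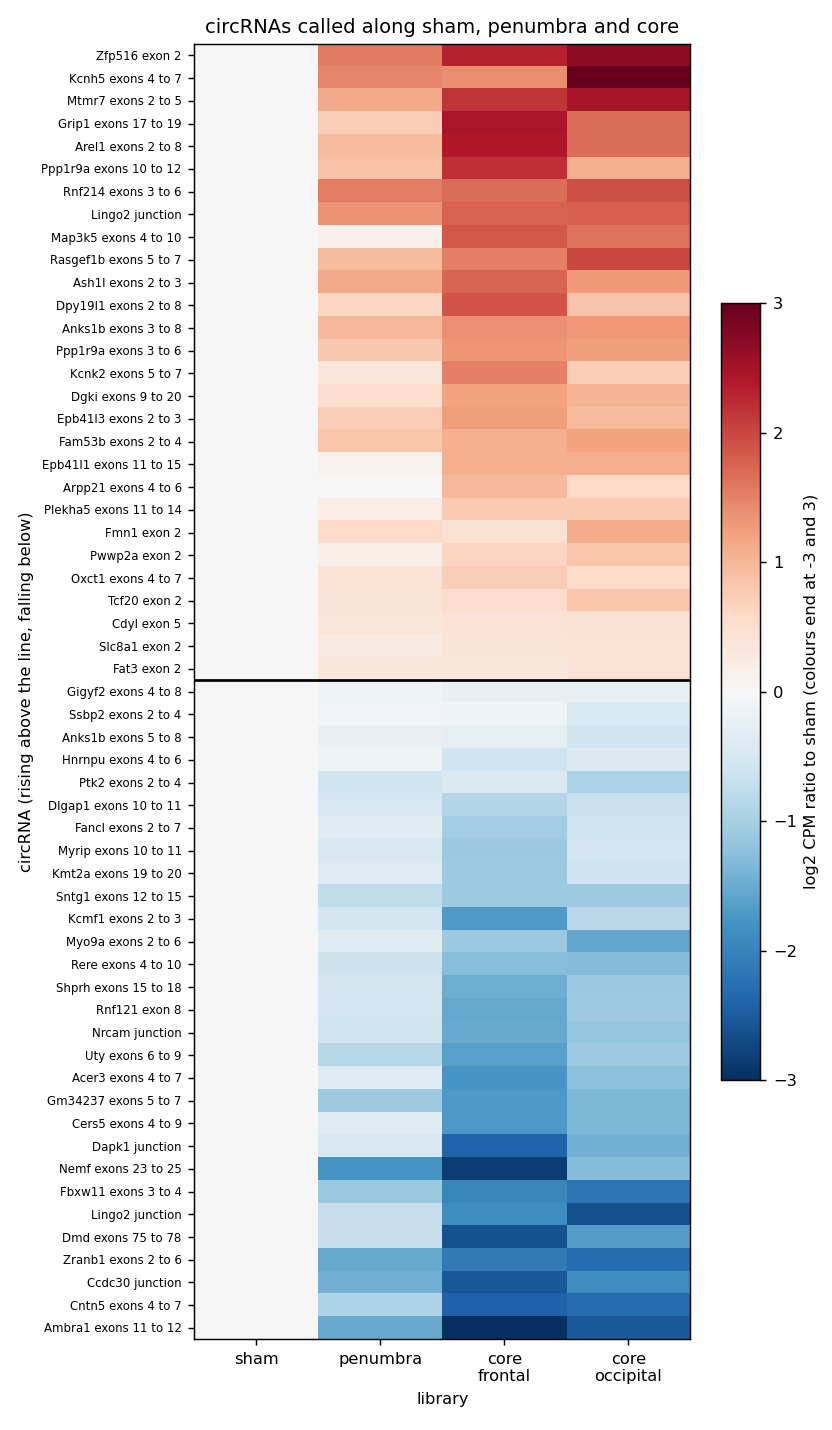
Log2 CPM ratio to sham of the called circRNAs, 2 of the 59 left out (rows, rising above the line and falling below, by their core to sham ratio) in the 4 libraries; red is above and blue below sham, and colours end at -3 and 3. Rows were chosen for this order, and the plot shows where penumbra and the core pieces sit, from Arpp21 with a penumbra like sham to Ptk2 with a penumbra like core.

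Because core is the sum of 2 pieces, each piece was also taken as the core alone. Of the 29 rising circles, 16 were called with core frontal alone, 12 with core occipital alone, and 6 with each: exon 2 of Tcf20, Slc8a1 and Fat3, Epb41l1 exons 11 to 15, Fam53b exons 2 to 4 and Cdyl exon 5. Of the 30 falling circles, 21 were called with core frontal alone, 7 with core occipital alone and 4 with each: the Ccdc30 junction, Ambra1 exons 11 to 12, Rnf121 exon 8 and Fbxw11 exons 3 to 4. With either piece alone, 7 rising and 6 falling circles were not called. Among the circles described above, Fmn1, Pwwp2a, Zfp516, Kcnh5, Mtmr7, Ptk2 and Ssbp2 lost the call with core frontal alone. Epb41l3, Map3k5, Mtmr7, Grip1, Arel1, Hnrnpu, Gigyf2, Myrip, Dapk1, Cntn5, Zranb1 and Shprh lost it with core occipital alone. A lost call need not mean a smaller ratio, since a single piece has fewer counts: with core occipital alone the core to sham ratio was 5.56 in Mtmr7 (4.86 with core summed), 0.202 in Zranb1 (0.219), 0.202 in Cntn5 (0.192) and 3.11 in Map3k5 (3.42). It moved further toward 1 in Grip1 (3.21 against 4.56) and Myrip (0.688 against 0.555), and with core frontal alone in Kcnh5 (2.63 against 5.08). In the 6 rising and 4 falling circles called with each piece, both core pieces lay beyond the penumbra. The strict order that a call demands fixes this in advance, so it adds nothing to those calls. The frontal library is the deepest (121393 counts) and the occipital the shallowest (83090).

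In 2 genes, circles that share an end moved in opposite directions. Exons 5 to 8 of Anks1b (10:90069468-90077142), a postsynaptic density protein, fell, with 2289.8 CPM in sham, 1962 in penumbra, 1870 in core frontal and 1504 in core occipital (sham to core 1.33, 1.13 to 1.57; adjusted p = 0.0367, exact trend test). Exons 3 to 8 (10:90042546-90077142) end at the same site and rose, with 14, 25, 41 and 27 counts (core to sham 2.53, 1.41 to 4.87; adjusted p = 0.0453, exact trend test). The circle of intermediate length, exons 4 to 8, had 49, 87, 82 and 53 counts, a core to sham ratio of 1.44 (1.03 to 2.03), and was not called. In Lingo2, a leucine-rich repeat membrane protein, the junction 4:36136454-36279316 fell (16, 9, 5 and 2 counts) and 4:36259857-36279316 rose (7, 16, 27 and 19). Ppp1r9a, the actin-binding neurabin of dendritic spines, gave 2 rising circles, exons 3 to 6 with 14, 22, 40 and 26 counts and exons 10 to 12 with 6, 10, 31 and 10. The other tested circle of the gene, exons 8 to 12, had 35, 36, 67 and 40 (core to sham 1.59, 1.08 to 2.41). Of the 26 hosts of rising circles with a single direction, other tested circles numbered 52, of which 31 had core above sham and 21 below, with a median ratio of 1.07. The 28 hosts of falling circles had 59 others, 22 above and 37 below, with a median of 0.853.

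Host gene sums gave 21 rising genes (1.04% of 2025) and 29 falling ones (1.43%) by the same test and order. Tcf20 (309, 365, 473 and 418 counts; core to sham 1.503, 1.32 to 1.72), Fat3 (1.32), Slc8a1 (1.28), Fmn1 (1.45), Ppp1r9a (1.61), Map3k5 (1.81), Epb41l1 (1.87) and Pwwp2a (1.69) had the smallest p among rising hosts. In Map3k5 the sum over all circles had 57, 77, 114 and 84 counts, with the penumbra above sham in CPM, whereas its circle of exons 4 to 10 had 7 in both. Genes that could rise only as a sum, with no circle of their own that reached 30 counts and was tested, included Akap9, a kinase A anchor (5, 12, 26 and 16 counts; 4.38, 1.73 to 14.2), Myo6, an unconventional myosin (3, 8, 12 and 18; 5.21, 1.62 to 26.7), and Oma1, a mitochondrial stress protease (6, 16, 26 and 17; 3.73, 1.58 to 10.7). Among falling hosts, Ccdc30 (69, 34, 23 and 23 counts; sham to core 2.88, 1.95 to 4.28), Ptk2 (1.29), Hnrnpu (1.39) and Dapk1 (3.84) share reads with their called circles: the Dapk1 sum is its only circle, and the Hnrnpu circle holds 958 of the 1017 counts of its host. Itga8, an integrin subunit (37, 17, 17 and 3; 3.55, 2.01 to 6.46), Arhgap26, a GTPase-activating protein (444, 336, 407 and 253; 1.29), Mboat2, a lysophospholipid acyltransferase (408, 298, 393 and 207; 1.30), Gm34237 (2.44), Wdr49 (22, 11, 5 and 5; 4.22) and Rab2a, a small GTPase of the secretory pathway (18, 11, 2 and 7; 3.84), completed the leading falling hosts. In Itga8 the low value was that of core occipital, and in Rab2a that of core frontal. No single circle of Itga8 or Wdr49 reached 30 counts. Of the 59 called circles, 30 had a host sum called as well, and 21 called hosts held no called circle of the same direction. The sums of Lrp1b, Acaca, Dpp10, Tpr, Vps53 and Unc13c passed the adjusted p but not the order. With a single core piece, 4 rising and 3 falling host sums were called with each.

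Gene groups listed by function were set against the 1.22% and 1.26% of all circles. The lists were drawn up with earlier results of these data known, and their counts are descriptions. In the actin and membrane skeleton list, 3 of 24 tested circles rose (Fmn1, Epb41l1 and Epb41l3) and 1 fell (Dmd exons 75 to 78, the dystrophin gene; 16, 9, 3 and 4 counts), and the median core to sham ratio was 1.25 against 1.01 over all circles. Of 50 postsynaptic scaffold circles 3 rose (Grip1 and both of Ppp1r9a) and 1 fell (Dlgap1 exons 10 to 11; 816, 571, 445 and 518 CPM), with a median of 0.955. The most abundant of that list, Homer1 exons 2 to 5 (13:93341756-93356079), had 223, 189, 233 and 168 counts and was not called. None of 81 circles of presynaptic release genes was called. Their most abundant one, at Rims1 (1:22346293-22393948), had 503, 445, 571 and 450 counts, although the host sum of Erc2, an active zone protein, rose (365, 375, 482 and 386). None of 23 circles of glutamate and GABA receptor genes was called either, and Grin2b exons 7 to 11, of an NMDA receptor subunit, had 69, 75, 83 and 70 counts.

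Among 45 circles of voltage-gated and leak channels, Kcnh5 and Kcnk2 exons 5 to 7 (13, 15, 42 and 17 counts) rose and 0 fell. Of 16 circles of calcium pumps, exchangers and release channels, Slc8a1 rose. Ryr2 exons 24 to 29, of the ryanodine receptor, had 116, 108, 154 and 82 counts and a core to sham ratio of 1.06. Of 29 circles in hypoxia, stress and death signalling, Map3k5 rose, and Dapk1 and Ambra1 fell. Of 9 circles in a list of energy and fatty acid enzymes, not all of them mitochondrial, 0 were called. Their median ratio was 0.758, the lowest of these lists. The circle of Acaca exons 2 to 3, of acetyl-CoA carboxylase, had 148, 78, 128 and 67 counts, lowest in CPM in the penumbra and in core occipital. The single tested circle of an immediate early gene list, Rasgef1b exons 5 to 7 (5:99240823-99243246), rose, with 75.1 CPM in sham, 145 in penumbra, 214 in core frontal and 301 in core occipital (3.32, 1.56 to 8.11). Both core pieces lay above the penumbra, and the penumbra above sham. Of 41 chromatin modifier circles, Ash1l exons 2 to 3 rose and Kmt2a exons 19 to 20 fell, both histone methyltransferases. Of 73 circles of ubiquitin ligases and deubiquitinases in a list drawn mostly by the start of the gene symbol, 2 rose, among them Rnf214, while Rnf121 and Fbxw11 fell. The list lacks Arel1, which rose, and Zranb1 and Shprh, which fell. Of 90 circles of hosts known for abundant brain circles, Fat3, Slc8a1 and Cdyl rose and Gigyf2 and Ssbp2 fell.

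Rising and falling circles were set side by side by structure, as a description without a test. Of the 28 rising circles with a spliced sequence, 7 were a single exon and 6 were exon 2 alone (21.4%), against 3.20% of all tested circles. Those are Tcf20, Fmn1, Slc8a1, Fat3, Pwwp2a and Zfp516. Of the 26 falling circles with a sequence, 1 was a single exon (Rnf121) and 0 were exon 2 alone. Over the whole order, called or not, the contrast was small. Exon 2 alone made up 4.22% of the 379 circles with a sequence in the rising order and 2.33% of the 301 in the falling order. The median spliced length was 808 bases in the rising, 378.5 in the falling and 477.5 in all tested circles. The GC content had a median of 50.2% in the rising, 45.6% in the falling and 47.3% in all.

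GC content moved with the order over all circles too. In the lowest decile by GC (median 39.8%), 11.7% of circles stood in the rising and 20.2% in the falling order. In the highest decile (median 56.8%), the shares were 19.7% and 7.04%. The median penumbra to sham ratio climbed from 0.873 to 1.21 between these deciles, and the core to sham ratio from 0.879 to 1.09. The core pieces were unlike in this respect: the highest decile took 8.21% of counts in sham and 8.002% in core frontal, but 9.63% in penumbra and 9.82% in core occipital. With the total of its own GC decile in place of the library total, 19 of the 29 rising circles and 22 of the 30 falling ones stayed called. Circles without a spliced sequence have no decile and kept the library total. Among the falling ones that stayed, these were the junctions of Ccdc30, Dapk1, Nrcam and Lingo2, whose ratios were therefore not corrected. Fat3, Epb41l1 and Arpp21 lost the strict order and not the trend: their GC-corrected core to sham ratios were 1.33, 1.97 and 1.73, against 1.29, 2.10 and 1.77 before, and their adjusted p was 0.000471, 0.00342 and 0.0341 (exact trend test). The other losses named here were of circles near the threshold, with small changes in the ratio. Among rising ones, Anks1b (2.52 after correction), Ppp1r9a exons 3 to 6 (2.39), Lingo2 (3.42), Kcnk2 (2.29), Mtmr7 (4.73) and Dgki (2.19) had an adjusted p of 0.0502 to 0.0719 after correction (exact trend test). The rising Lingo2 junction has no decile either, so its ratio did not change and only its adjusted p did. Among falling ones, Acer3, Myo9a, Kcmf1, Anks1b, Uty, Fancl and Sntg1 had 0.0534 to 0.0820. The 8 circles whose junctions are printed above all stayed.

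**Figure D4:**
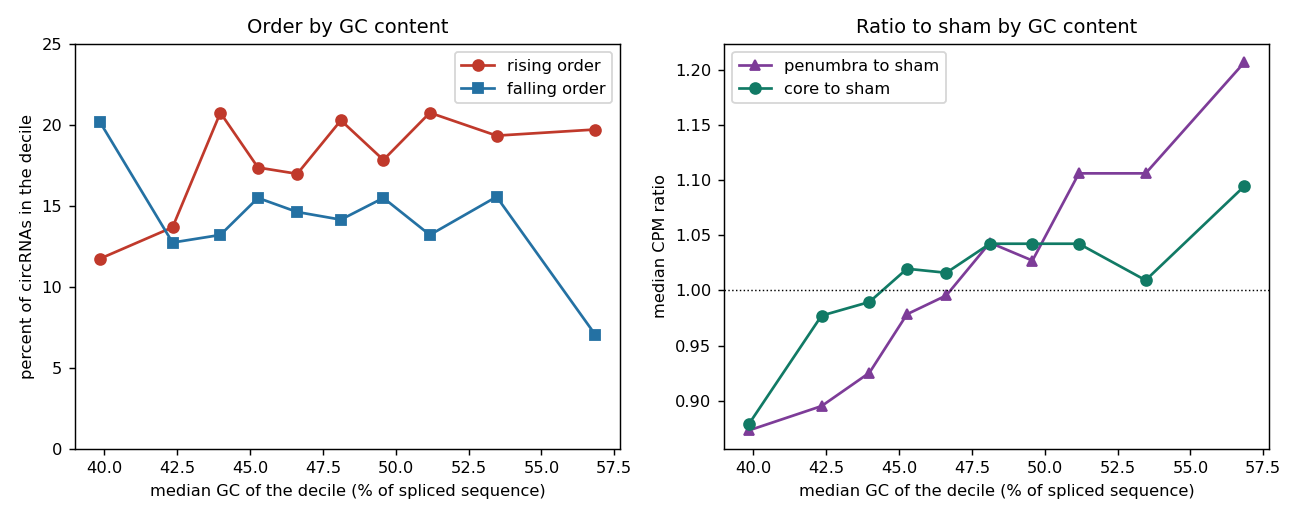
CircRNAs with a spliced sequence in deciles of GC content (x axis, median GC of the decile in percent): share in the rising and falling order (left, percent) and median CPM ratio to sham (right, an axis that does not start at 0). The falling share drops from 20.2% to 7.04%, and the penumbra ratio climbs from 0.873 to 1.21.

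Pairs of libraries that share none were compared to see whether the core direction repeats. The log2 ratio of core frontal to sham had the same sign as that of core occipital to penumbra in 52.6% of the 2372 circRNAs (r = 0.060 across circRNAs). The converse pairing, core occipital to sham with core frontal to penumbra, had the same sign in 45.9% (r = -0.080). The first pairing thus stood slightly above an even split and the other below it, and with the GC trend removed the shares were 52.7% and 47.8%. These correlations run across circRNAs, which are not independent replicates, and the points of a pairing share its 4 libraries with their depths and base composition.

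**Figure D5:**
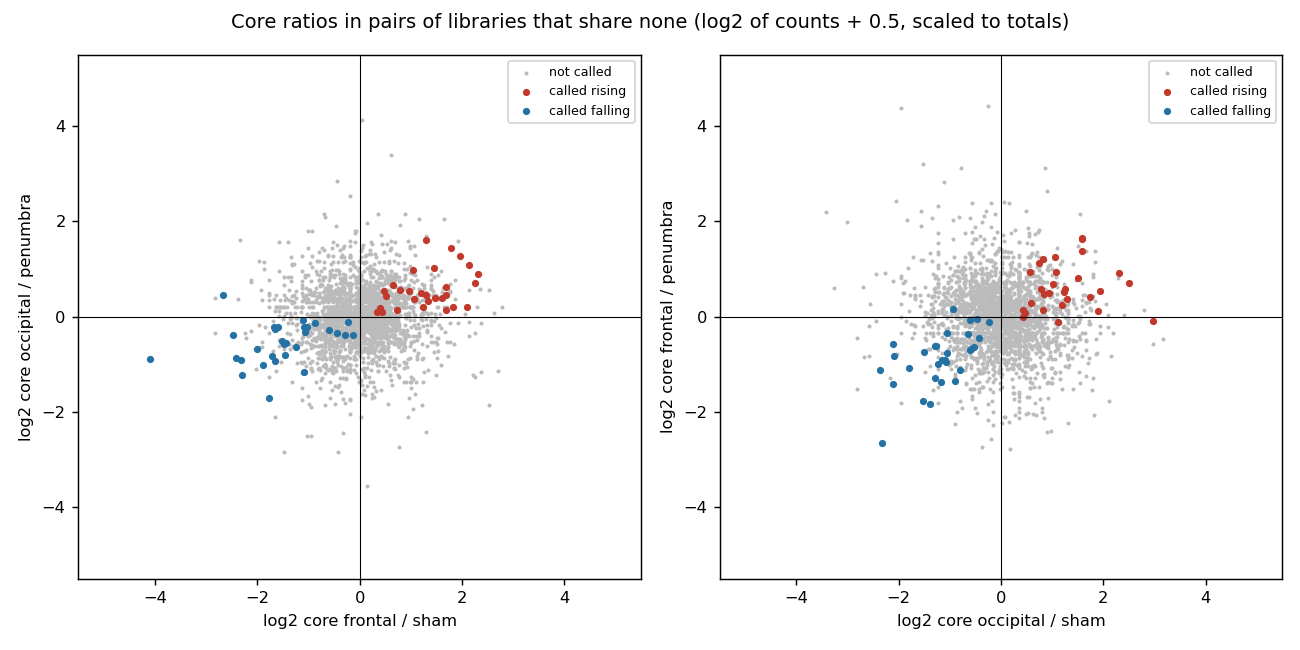
Log2 ratio (counts + 0.5, scaled to totals) of core frontal to sham against core occipital to penumbra (left) and of core occipital to sham against core frontal to penumbra (right); each point is 1 of 2372 circRNAs, with rising circles in red and falling in blue. Over all points r is 0.060 and -0.080, and the coloured points lie toward 2 corners because they were chosen from the same 4 libraries.

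At the lower limit of 30 counts, 75 circRNAs had exactly 30 (15 in the rising and 13 in the falling order) with 2 to 15 counts in sham, and 88 had 29 (20 and 12) with 1 to 17. Total circRNA counts were 106558 in sham, 96349 in penumbra, 121393 in core frontal and 83090 in core occipital, so that 1 count equals 8.24 to 12.04 CPM. Of hosts that mark cell types, 7 of 10 neuron markers had circles, with sums of 1379.5 CPM in sham, 1827 in penumbra and 1425 and 1817 in the core pieces. For astrocytes 4 of 10 had circles (225 CPM in sham, 426 in penumbra, 461 and 325 in core), for oligodendrocytes 5 of 10 (141, 187, 132 and 193) and for endothelium 3 of 8 (84.5, 104, 115 and 253). The 8 microglia and 7 blood markers had 0 counts in every library, as did Slc17a7, Gad1, Gad2, Aqp4, Gfap, Mog and Cldn5. Markers of upper cortical layers (638, 882, 667 and 927 CPM), deep layers (957, 934, 1029.7 and 1083) and striatum (1792, 1639.9, 1878 and 1865) had counts in all libraries, and no marker host was called. Foxp1 held most of the striatum sum, with 164, 132, 172 and 123 counts in sham, penumbra, core frontal and core occipital. The other striatum hosts had few: Pde10a 19, 17, 35 and 21, Meis2 5, 9, 13 and 7, Rgs9 0, 0, 6 and 1, and Rarb 3, 0, 2 and 3. The striatum sum thus says little about these hosts. The neuron, astrocyte, endothelial and upper layer sums were lowest in sham, on 147, 24, 9 and 68 counts there. Among these, only the endothelial sum had both core pieces above the penumbra. Most of its counts came from 1 circle of Adgrl4, with 7, 7, 11 and 18 in sham, penumbra, core frontal and core occipital. For oligodendrocyte precursors 1 of 5 markers had circles (93.8 CPM in sham, 166 in penumbra, 82.4 and 108 in core). That sum and the oligodendrocyte sum were lowest in core frontal. The part of these markers in the results was not tested.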

How the data were processed

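RNA depleted of ribosomal RNA from 4 mouse brain libraries was sequenced, per the labels' protocols. The authors deposited whole-number counts per circRNA, without normalization, and a table of FPKM that equals those counts divided by genomic span and library total (largest relative difference 5.1e-15), which adds no depth. The submitters' processing notes name TopHat2 2.0.10, Bowtie and mm9. The coordinates, however, fit GRCm38: 89.1% of starts lie on GENCODE M21 exon starts, against 0.192% when moved by 1 base. The circRNA caller is not given in the sources used here. The table gives no strand or gene, so hosts were assigned from exon boundaries (23459 of 23980 circRNAs, 19904 by both ends and 2883 by 1 end), strand was taken from the host gene, and genes that overlap cannot be told apart. Exons are numbered along the transcript with the most exons that contains both ends.

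Libraries were grouped by their tissue and treatment labels. Counts were scaled to library totals, and circRNAs with 30 or more counts were tested with the exact conditional trend test (Python 3.11.15, SciPy 1.17.1). Intervals are exact (Poisson for a level, Clopper-Pearson for a ratio) at 95% and cover counting error only. They may be too narrow even for that, since several reads may stem from 1 molecule copied by PCR. A floor of 3 counts equals 24.7 to 36.1 CPM. edgeR 4.0.16 (TMM, sham 0, penumbra 1, each core 2, 2 residual degrees of freedom) and DESeq2 1.42.0 were run beside it. The trend test was tested on simulated data. The exact test was taken as the main one because with 1 library a group edgeR must treat different core pieces as replicates. Alternatives were other scalings, count limits and thresholds, a GC correction, an assumed spread and single core pieces. Members and lists were chosen with earlier results of these data known. Named circles are the 12 with the smallest trend p in each direction and the 5 highest and 5 lowest core to sham ratios among the called, with the 5 most abundant; hosts likewise with 8 and 3. Members of lists are named where called or among the 3 most abundant. Further called circles, other circles of their hosts and the printed Rnf121 circle were chosen after their values were seen. A few items are not reported here.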

Additional observations from a re-analysis of the deposited data

Results flagged for a closer look

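The frontal and the occipital core piece differed by Fisher's exact test (adjusted over all tested) in 3 called circles. Exon 2 of Fmn1 had a frontal to occipital CPM ratio of 0.635, Ssbp2 exons 2 to 4 one of 1.27 and Kcnh5 exons 4 to 7 one of 0.304. The same held for 5 called host sums, with ratios of 0.775 for Tcf20, 0.719 for Fmn1, 0.751 for 2010111I01Rik, 1.28 for Ssbp2 and 1.34 for Rasa2. In these the core level used for the order is a mean of unlike pieces, with the occipital piece farther from sham in Fmn1, Ssbp2, Kcnh5, Tcf20 and Rasa2 and the frontal piece farther in 2010111I01Rik. Over all 2372 circRNAs, 37 differed between the core pieces in this test, which compares those libraries only.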

How the results depend on the processing

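With 1 library a group no setting leaves out a replicate, and no paired analysis was possible. No called circle or host sum changed direction. The falling order of circRNAs, above counting error in the main counts, lay just below it with core frontal alone (15.8% against 15.9%), with DESeq2 size factors (14.1% against 14.4%) and without a count limit (9.47% against 9.51%). Scaling by TMM or DESeq2 size factors kept all 50 named circles and host sums called. With core frontal alone 34 of the 50 stayed called, and with core occipital alone 29. The GC correction kept 25 of 29 named circles. Among them, the Ccdc30, Dapk1 and falling Lingo2 junctions have no GC decile and kept the library total. Rising circRNAs numbered 16 with a limit of 10 counts and 17 with 100 counts, for which more or fewer were tested. Without a count limit 6 rose and 10 fell, with a spread of 0.2 assumed 0 and 2, and at an adjusted p of 0.01 8 and 9. Rising host sums numbered 10 with core frontal alone. Without a limit 12 host sums rose and 16 fell, with a spread of 0.2 assumed 0 and 0, at 0.01 7 and 8, and with core set against sham alone 19 fell. The share of circRNAs in the rising and falling order was 19.7% and 20.2% with core occipital alone (16.5% and 17.1% from counting error), 11.005% and 9.47% without a limit, and 9.36% and 8.73% with both core pieces beyond the penumbra. For host genes it was 20.8% and 18.3% with core occipital alone, and 14.9% and 12.3% without a limit. At 10 counts edgeR called 1 circRNA lower, the Ccdc30 junction. At 100 counts the converse pairing of libraries had the same sign in 42.2%. Where the number tested did not change, the cause was not tested. A core taken as the mean of its pieces was applied to the orders alone. The demand that both core pieces lie beyond the penumbra on top of the call, added after the data were seen, left 27 and 28. Depth limits the circles with few counts most, as their wide intervals show.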
